A study of Rattus norvegicus with 9 samples.

Results

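Described here are the vascular endothelial growth factor (VEGF) ligands Vegfa, Vegfb, and Vegfc, their receptors Flt1, Kdr, and Flt4, the angiopoietins Angpt1 and Angpt2, and the Tie receptors Tek and Tie1. All probes that carried exactly 1 of these 10 symbols were taken, which gave 10 of the 16618 gene symbols and 14 of the 30367 probes of the array, and a gene was represented by its brightest probe over the 9 arrays. Of the 10 genes, 9 were measured well enough to be tested, among 23747 probes tested in all. The Vegfb signal did not stand well above background on a single array, so neither a level nor a fold change is given for it.

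Brain RNA of Sprague Dawley (SD) rats, males per the methods, was hybridized to one-color Agilent arrays, with 3 arrays in each of 3 groups and the tissue taken at day 14. Sham rats had a sham operation. I/R rats had the middle cerebral artery closed by a nylon suture for 2 h and then reopened (ischemia/reperfusion), and DHI rats had the same injury with Danhong injection, an extract of Danshen and Honghua, into the tail vein for 14 days. The methods state the dose of the array samples in g/kg and elsewhere in mL/kg, name the infarcted hemisphere as the tissue, and give no age of the animals, and elsewhere the study calls the 3 arrays of a group biological replicates. The suture model leaves a core and a border of injury that the dissection did not separate.

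VEGF ligands bind receptor tyrosine kinases on endothelial cells and drive their division, their migration, and the leakiness of vessels. Kdr carries most of this signal, Flt1 binds Vegfa tightly and limits it, and Flt4 with Vegfc serves lymphatic vessels and sprouting capillaries. Angpt1 from cells around the vessel activates Tek and keeps vessels quiet, Angpt2 from endothelial cells mostly opposes it and loosens the wall, and Tie1 is a partner of Tek without a known strong ligand. In brain these genes are known for the growth of new vessels and for the opening of the blood-brain barrier after stroke.

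Some of the 60-base probes are shown by sequence so that their values can be tied to the transcript stretch they read. Positions are those that the files list on rn4, and exon and UTR annotation of that build was not used here. Vegfa was read by 4 probes on chromosome 9, numbered here in chromosome order. Probes 2 and 3 follow. The fourth and brightest, at chr9:10535933-10535992, represents Vegfa in all counts of genes and is named by position only.
Vegfa probe 2, chr9:10528551-10528610: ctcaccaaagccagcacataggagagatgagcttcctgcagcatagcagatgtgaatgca
Vegfa probe 3, chr9:10531972-10532031: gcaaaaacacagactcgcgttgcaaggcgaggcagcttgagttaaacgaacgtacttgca

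The angiopoietins and the Tie receptors were read by 1 probe each, and for Angpt1 the files list a position of 6 bases only (chr7:78195504-78195509).
Angpt1: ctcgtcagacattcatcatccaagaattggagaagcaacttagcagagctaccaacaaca
Angpt2, chr16:75939239-75939298: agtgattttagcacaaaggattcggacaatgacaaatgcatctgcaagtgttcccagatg
Tek, chr5:115178576-115178635: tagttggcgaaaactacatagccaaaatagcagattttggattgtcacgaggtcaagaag
Tie1, chr5:138950263-138950322: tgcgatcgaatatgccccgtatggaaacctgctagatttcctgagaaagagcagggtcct

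Each of these sequences belonged to 1 probe of the array only. Flt1 was read at chr12:7957094-7957153, Flt4 by 2 probes of which the brightest lies at chr10:35111685-35111744, Vegfc at chr16:40624468-40624527, and Vegfb at chr1:209657830-209657889. The files list no position for the Kdr probe.

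All values are the log2 processed signal with that of the array's 75th percentile subtracted, written log2 relative signal, so that 0 is the level of that percentile. The values of different probes are not set against each other. The 75th percentile was 2569.7 to 2745.3 in Sham, 2628.7 to 3464.4 in I/R, and 1816.3 to 2785.1 in DHI, and 75.2% to 78.9% of the probes were well above background. Sham and I/R shared a slide and a scan, whereas DHI had a slide and a scan of its own, and the effects of slide and treatment cannot be told apart in either DHI comparison. In tissue RNA, fewer cells of a type and less RNA per cell cannot be told apart either, which holds for every result given here. A gene is written as called when limma gave an unadjusted p under 0.05 and a fold change over 1.5, the thresholds of the study, and adjusted p is that of limma over all probes tested.

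After I/R, the angiopoietin and Tie genes were higher and Vegfa was lower, while the VEGF receptors did not pass the test. Of the 9 genes tested, 4 were called higher (Angpt1, Angpt2, Tek, and Tie1) and 1 lower (Vegfa) in I/R versus Sham, that is 5 of 9 beside 43.1% of all probes tested. Calls of higher signal made up 20.8% of all probes tested, beside 4 of the 9 genes, and calls of lower signal 22.3%, beside 1 of 9. With 9 genes the total of 5 was near the background of this comparison, and the split by direction was not tested. All 5 genes also had an adjusted p under 0.05, which 32.4% of all probes reached, 16.7% higher and 15.8% lower. The arrays did not overlap for these 5 genes and for Flt1, which is 6 of 9 genes beside 62.5% of all probes, 26.7% of them higher and 35.8% lower. The median log2 fold change was 0.06 over the 9 genes and -0.10 over all probes.

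**Figure D1:**
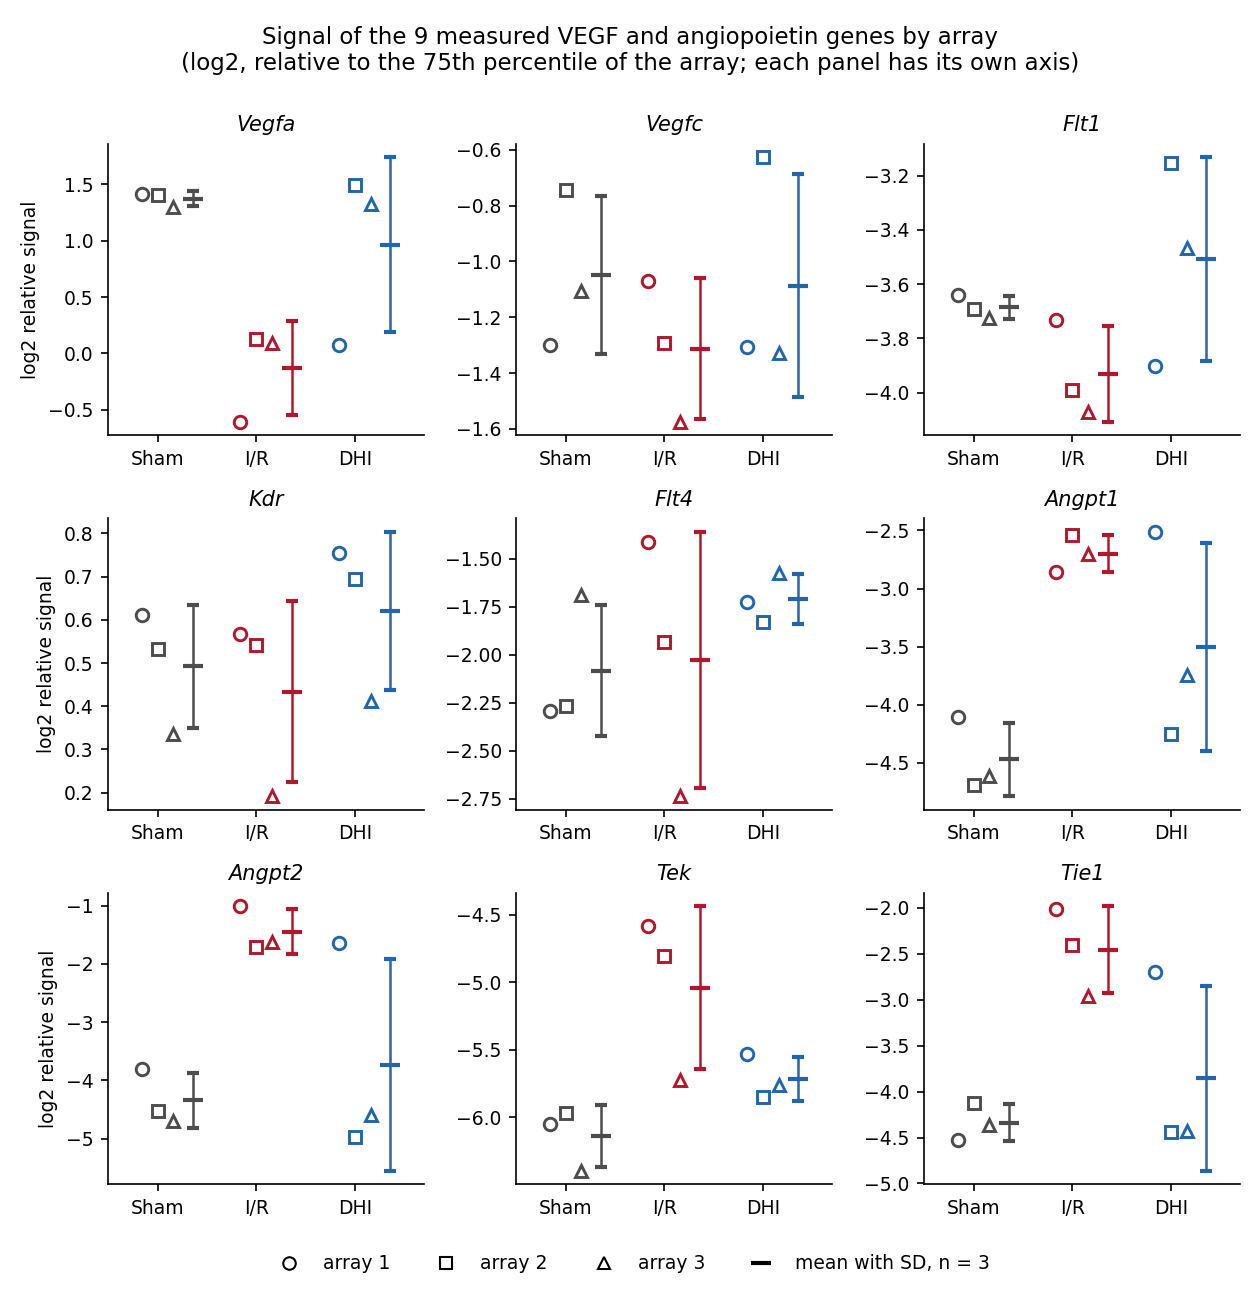
Log2 relative signal of the 9 measured genes on each of the 9 arrays (one symbol per array number), with the mean and SD of each group; every panel has its own axis. The Vegfa values of I/R lie below and the Angpt1, Angpt2, Tek, and Tie1 values of I/R above all Sham values, and for Vegfa, Angpt1, Angpt2, and Tie1 array 1 of DHI lies near the I/R arrays.

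Vegfa, the main ligand of Kdr, had log2 relative signals of 1.42, 1.41, and 1.30 on Sham arrays 1, 2, and 3. It had -0.61, 0.13, and 0.09 in I/R and 0.07, 1.49, and 1.33 in DHI. All 3 I/R arrays lay below all Sham arrays, and of the DHI arrays 1 lay among the I/R values and the other 2 at or near the Sham values. Vegfa fell in I/R versus Sham by 1.504 on the log2 scale (SE 0.38, 2.84-fold, adjusted p = 0.0396). By group mean, Sham (1.37 ± 0.07) stood first, DHI (0.97 ± 0.78) next, and I/R (-0.13 ± 0.42) last (SD, n = 3 arrays), and the difference between Sham and DHI was within their spread.

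The other Vegfa probes, of which probes 2 and 3 are shown by sequence above, had differences of the same sign. Probe 1 had log2 relative signals of -2.11, -1.77, and -1.89 in Sham, -3.99, -3.66, and -3.37 in I/R, and -3.67, -1.21, and -1.78 in DHI. Probe 2 had -0.56, -0.58, and -0.67 in Sham, -2.11, -1.58, and -1.92 in I/R, and -2.03, 0.36, and -0.02 in DHI. Probe 3 had -5.46, -5.47, and -5.49 in Sham, -6.83, -6.42, and -6.46 in I/R, and -6.70, -5.36, and -5.41 in DHI. On every one of the 4 probes the 3 I/R arrays lay below the 3 Sham arrays, and array 1 of DHI stood with the I/R arrays. The log2 differences of I/R from Sham were -1.75 (adjusted p = 0.0464), -1.27 (adjusted p = 0.0988, not called), and -1.099 (adjusted p = 0.0450) for probes 1, 2, and 3. The 4 probes read the same RNA samples on the same arrays and are not replicates of each other. The Vegfa transcripts that the array annotation lists for them differ in part, among others between probes 2 and 3.

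**Figure D2:**
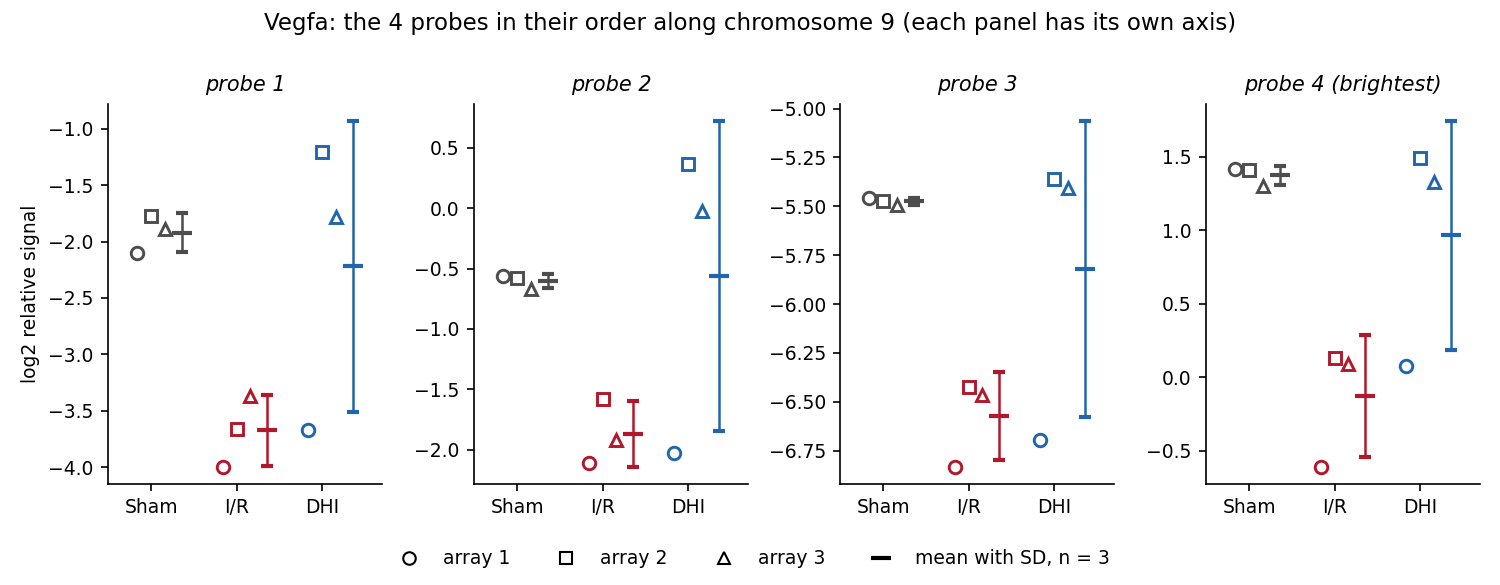
Log2 relative signal of the 4 Vegfa probes on each array, in their order along chromosome 9, with the mean and SD of each group (n = 3). In every panel the I/R arrays lie below the Sham arrays, and DHI array 1 lies far below DHI arrays 2 and 3.

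Angpt2, the angiopoietin that destabilizes vessels, showed the largest difference among the 9 genes. Its log2 relative signal was -3.81, -4.53, and -4.69 in Sham and -1.01, -1.71, and -1.63 in I/R. In DHI it was -1.64 on array 1 and -4.96 and -4.59 on arrays 2 and 3. The I/R arrays lay above all Sham arrays, while DHI array 1 lay within the I/R range and the other 2 within or just below the Sham range. The rise in I/R versus Sham was 2.89 (SE 0.79, 7.43-fold, adjusted p = 0.0404) on the log2 scale.

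Angpt1, the agonist of Tek, also rose. Its log2 relative signal was -4.11, -4.69, and -4.62 in Sham, -2.86, -2.54, and -2.70 in I/R, and -2.51, -4.26, and -3.74 in DHI. The I/R values lay above all Sham values, and DHI array 1 lay above all I/R arrays. The rise in I/R versus Sham was 1.77 (SE 0.41, 3.40-fold, adjusted p = 0.0396).

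Tek, the receptor of both angiopoietins, had log2 relative signals of -6.05, -5.97, and -6.40 in Sham, -4.59, -4.81, and -5.73 in I/R, and -5.53, -5.85, and -5.76 in DHI. Array 3 of I/R was the lowest of its group and lay within the DHI range, but above all Sham arrays. Tek rose by 1.096 (SE 0.30, 2.14-fold, adjusted p = 0.0403) in I/R versus Sham. Its probe was dim, and with normexp background correction the difference was 0.45 and was no longer called.

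Tie1, the partner of Tek, had log2 relative signals of -4.53, -4.13, and -4.36 in Sham, -2.01, -2.40, and -2.96 in I/R, and -2.70, -4.45, and -4.43 in DHI. All I/R arrays were above all Sham arrays, and array 1 of DHI was within the I/R range. The rise in I/R versus Sham was 1.88 (SE 0.48, 3.69-fold, adjusted p = 0.0396). The adjusted p of the 5 genes lay close to its threshold. With Sham array 1, 2, or 3, I/R array 1 or 2, or DHI array 3 left out, 0 of the 9 genes had an adjusted p under 0.05. The 5 genes were all still called in these fits, with an adjusted p of at most 0.133.

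The VEGF receptors differed less between Sham and I/R. Kdr, the main signalling receptor, had log2 relative signals of 0.61, 0.53, and 0.33 in Sham, 0.57, 0.54, and 0.19 in I/R, and 0.76, 0.69, and 0.41 in DHI. The 3 groups overlapped, with array 3 the lowest in each. The difference of I/R from Sham was -0.06 (95% interval -0.46 to 0.34, adjusted p = 0.797). An interval of this width leaves room for a small change in either direction.

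Flt1, which binds and limits Vegfa, had log2 relative signals of -3.64, -3.69, and -3.72 in Sham, -3.73, -3.99, and -4.07 in I/R, and -3.90, -3.15, and -3.47 in DHI. The I/R arrays lay just below the Sham arrays. DHI array 1 lay within the I/R range, and DHI arrays 2 and 3 lay above all Sham arrays. The difference of I/R from Sham was -0.25 (95% interval -0.72 to 0.23, adjusted p = 0.357) and was not called.

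Flt4, the receptor of Vegfc, had log2 relative signals of -2.29, -2.27, and -1.69 in Sham, -1.41, -1.93, and -2.74 in I/R, and -1.72, -1.83, and -1.57 in DHI on its brightest probe. The I/R arrays spread on both sides of the Sham arrays. The differences of I/R from Sham were 0.06 (95% interval -0.71 to 0.82) and 0.14 on its 2 probes, and neither was called.

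Vegfc, the lymphatic ligand, had -1.30, -0.74, and -1.10 in Sham, -1.07, -1.29, and -1.57 in I/R, and -1.30, -0.63, and -1.33 in DHI as log2 relative signals. The groups overlapped throughout. The difference of I/R from Sham was -0.26 (95% interval -0.85 to 0.32, adjusted p = 0.420).

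In DHI versus I/R, Vegfa was higher and Angpt2 and Tie1 were lower at the thresholds of the study, and 0 genes had an adjusted p under 0.05 from limma, with 3 at an unadjusted p under 0.05 and 0 called by the methods' t-test. The 3 genes called of 9 stand beside 21.9% of all probes tested, with 11.5% called higher and 10.5% lower. This comparison uses the same I/R arrays as the one before it, so that the opposite signs are not independent. The log2 difference of DHI from I/R was 1.095 for Vegfa (SE 0.38, adjusted p = 0.196). It was -2.28 for Angpt2 (SE 0.79, adjusted p = 0.196) and -1.40 for Tie1 (SE 0.48, adjusted p = 0.196). Of all probes 0.00421% had an adjusted p under 0.05 here.

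In none of the 9 genes did the DHI and I/R arrays separate, where 9.54% of all probes had groups that did not overlap (5.52% higher and 4.03% lower). For Vegfa, Angpt1, Angpt2, and Tie1, DHI array 1 lay with the I/R arrays and DHI arrays 2 and 3 did not. The calls changed when some single arrays were left out. Without DHI array 1, 5 genes were called, Vegfa with 1.54, Angpt2 with -3.33, Tie1 with -1.98, Angpt1 with -1.30, and Flt1 with 0.62 on the log2 scale, and all 5 had an adjusted p under 0.05 (0.00165 to 0.0219). Without I/R array 1, DHI array 2, or DHI array 3, 0 of the 9 genes were called, with an unadjusted p of 0.0625 to 0.0735 for Vegfa, Angpt2, and Tie1. Their log2 differences were then 0.83 to 0.91 for Vegfa, -1.66 to -2.06 for Angpt2, and -1.11 to -1.18 for Tie1. The number of all probes called moved likewise, from 5211 to 10737 without DHI array 1 and to 939 without DHI array 2.

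Angpt1 and Tek were lower in DHI by 0.80 and 0.68 on the log2 scale without being called, with 95% intervals of -1.75 to 0.15 and -1.36 to 0.01. Flt1 differed by 0.42 (95% interval -0.05 to 0.90), Kdr by 0.19 (-0.21 to 0.59), Flt4 by 0.32 (-0.45 to 1.08), and Vegfc by 0.23 (-0.36 to 0.81). The other Vegfa probes gave 1.45 and 1.31 for probes 1 and 2, both called, and 0.75 for probe 3, which was not. With no scaling between arrays, the median of all probes in DHI versus I/R moved from 0.10 to -0.36 and the share of higher calls from 52.2% to 4.8%. Vegfa was then 0.63 and not called, while Angpt2 (-2.74), Tie1 (-1.86), Angpt1 (-1.26), and Tek (-1.14) were called. Tek was also called with quantile normalization, the authors' log2 values, the filter over all 9 arrays, array weights, and the replicate block, and without I/R array 3, by -0.68 to -1.02.

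Between DHI and Sham, 1 of the 9 genes was called beside 3.58% of all probes (2.52% higher and 1.06% lower). Angpt1 was higher by 0.97 on the log2 scale (SE 0.41, adjusted p = 0.709), and this difference was 0.47 and not called without DHI array 1. For Tek the 3 DHI arrays lay above the 3 Sham arrays, as was so in 10.3% of all probes (8.34% lower, 18.6% in either direction), with a difference of 0.42 (95% interval -0.26 to 1.103) that was not called. The log2 differences of Angpt2 (0.61), Tie1 (0.48), and Vegfa (-0.41) had 95% intervals that held 0, the widest from -1.22 to 2.44 for Angpt2, and without DHI array 1 they were -0.43, -0.10, and 0.037. An adjusted p under 0.05 from limma was reached by 0 of the 9 genes, an unadjusted p under 0.05 by 1, and the methods' t-test called 0.

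**Figure D3:**
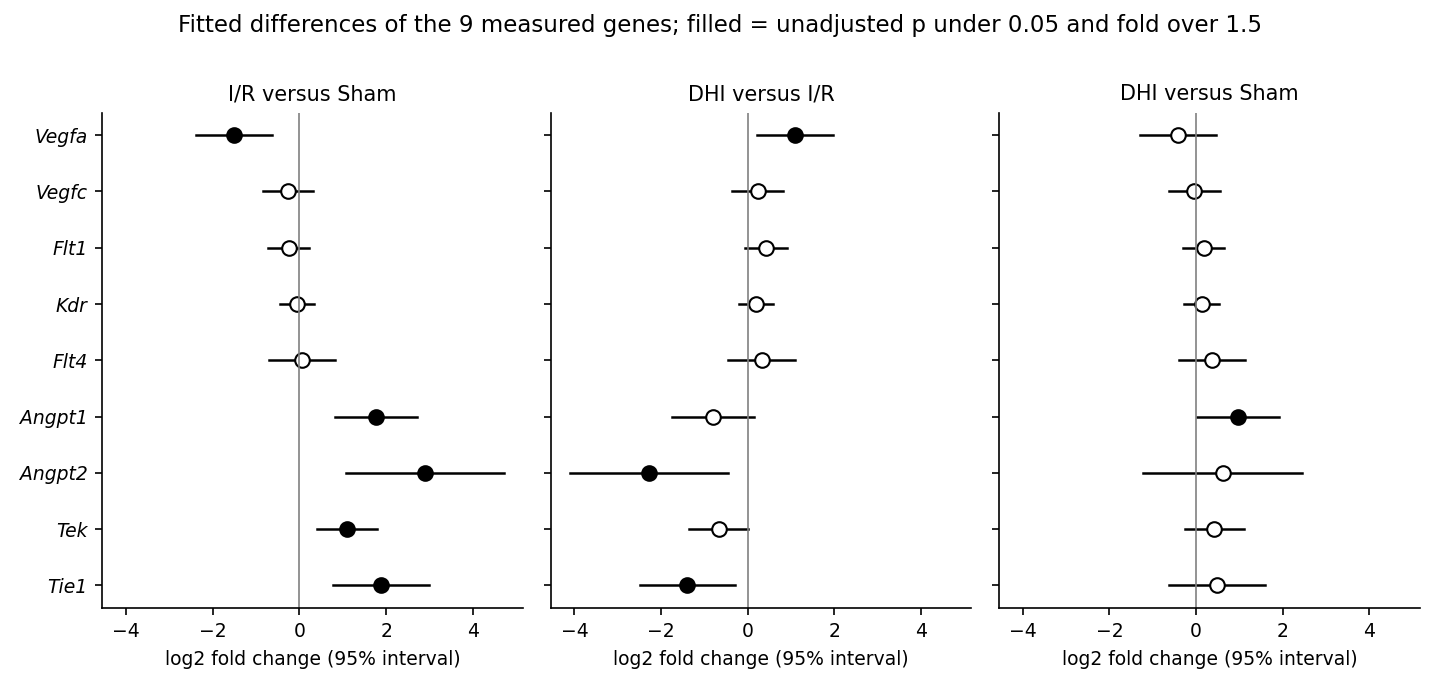
Fitted log2 fold changes of the 9 measured genes with 95% intervals in the 3 comparisons, filled where the unadjusted p was under 0.05 and the fold change over 1.5. Filled points are Vegfa, Angpt1, Angpt2, Tek, and Tie1 on the left, Vegfa, Angpt2, and Tie1 in the middle, and Angpt1 on the right.

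Promoter sequences of RefSeq (GRCr8) were matched by symbol for 7 of the 10 genes, with 8 entries. In the 250 bases before each start, on both strands, the GC box GGGCGG was found in 7 of the 8, beside 30.5% of 33469 promoters of the same length. The ETS core GGAAG, a letter pattern bound by endothelial transcription factors among others, was in 5 of the 8 beside 63.3%. The hypoxia response core ACGTG was in 0 of the 8 beside 16.6%, and the variant GCGTG in 3 of the 8 beside 25.9%. A match is a description of letters, and the window does not hold more distant elements. The stretches upstream of the outermost listed start of Vegfa, which was lower in I/R, and of Tie1, which was higher, are shown to let these letters be seen. In Vegfa (chr9:22452604-22452853, plus strand) capitals mark the 3 GC boxes, and in Tie1 (chr5:137305048-137305231, minus strand) they mark 1 GC box and 2 ETS cores, each of these 3 on the opposite strand.
Vegfa promoter: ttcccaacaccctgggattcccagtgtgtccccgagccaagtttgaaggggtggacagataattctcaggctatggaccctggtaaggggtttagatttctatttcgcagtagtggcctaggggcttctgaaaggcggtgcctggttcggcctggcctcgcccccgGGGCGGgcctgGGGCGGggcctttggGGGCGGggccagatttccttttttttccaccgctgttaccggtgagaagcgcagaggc
Tie1 promoter: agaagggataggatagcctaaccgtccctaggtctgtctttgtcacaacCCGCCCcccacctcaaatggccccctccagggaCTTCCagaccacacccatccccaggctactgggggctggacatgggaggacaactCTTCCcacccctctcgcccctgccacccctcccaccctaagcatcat

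Genes whose log2 values over the 9 arrays, centred on their mean, lay closest to those of Vegfa, Kdr, Tek, and Angpt2 were searched among 13671 named genes, as a description without a test. The arrays of a group share their treatment, which likeness of this kind also reads. Closest to Vegfa were Tanc2, Rhebl1, and Cacna1d, with root-mean-square differences of 0.09, 0.10, and 0.11 on the log2 scale. Closest to Angpt2 were Adamts2, Olfml3, and Foxc1 (0.19, 0.19, and 0.20), closest to Tek were S1pr3, Traf3ip3, and Pold1 (0.13, 0.15, and 0.16), and closest to Kdr were Olr162, Gipc1, and Hint2 (0.09, 0.10, and 0.10).

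Of 8 further ligands and co-receptors of the pathway, 4 reached the level needed for a test, and Angpt4, Pgf, Nrp1, and Ccbe1 were each called higher in I/R versus Sham, as were 20.8% of all probes. Ccbe1 reached that level through the I/R arrays alone, where it was high, so that the filter itself favoured its call. The other 3 were well above background on all 9 arrays. Figf and Nrp2 did not reach the level needed for a test, and Vegfd and Ptprb are not among the symbols of the array. Angpt4, a further angiopoietin, had log2 relative signals of -6.46, -6.80, and -6.88 in Sham, -2.53, -3.10, and -4.45 in I/R, and -3.93, -6.53, and -6.06 in DHI. The I/R arrays lay above all Sham arrays, and DHI array 1 lay among the I/R values. Angpt4 rose by 3.35 (SE 0.71, 10.2-fold, adjusted p = 0.0396) in I/R versus Sham, from a dim Sham signal that leaves the size uncertain. Its log2 difference of DHI from I/R was -2.15 (called, adjusted p = 0.196).

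Pgf, a VEGF ligand that binds Flt1, had -1.70, -2.67, and -2.07 in Sham, -0.14, -0.13, and -0.90 in I/R, and -0.26, -2.13, and -1.36 in DHI as log2 relative signals. Its I/R arrays lay above the Sham arrays, and its rise was 1.76 (adjusted p = 0.0404) and 1.77 (adjusted p = 0.0481) on its 2 probes. Nrp1, a co-receptor of Kdr for Vegfa, rose by 1.47 (adjusted p = 0.0396). Ccbe1, which helps to activate Vegfc, rose by 1.23 (adjusted p = 0.0450), but its probe was well above background on 1 of 3 Sham arrays, and the difference was 0.13 and not called with normexp background correction. Pgf, Nrp1, and Ccbe1 had DHI versus I/R differences of -0.86, -0.46, and -0.86 that were not called.

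Genes of endothelial tip and stalk cells, which lead and trail a growing sprout, were well above background on all 9 arrays for 11 of 12. Of these 11, 5 rose and 0 fell in I/R versus Sham, with a median of 0.60, beside 20.8% and 22.3% of all probes, and Angpt2 is one of the 5. Esm1, the gene of the list outside these 11, was also called higher and had been tested through the I/R arrays alone. Esm1, a secreted proteoglycan of tip cells, was not well above background on the 3 Sham arrays. Its log2 relative signal was -2.34, -2.38, and -2.37 in I/R, and -1.55, -8.70, and -6.10 in DHI, where the second was not well above background. It was 82.6-fold higher in I/R than a Sham level set at each array's dimmest detected signal, or the probe's own if higher. Its adjusted p from limma was 0.0396, with 1 DHI array at a level above I/R and the other 2 far below. Cxcr4, a chemokine receptor of tip cells and also of leukocytes, rose by 2.96 (adjusted p = 0.0396), and Aplnr, the apelin receptor, rose by 1.57 (adjusted p = 0.0433).

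Of the Notch genes that set tip against stalk, Jag1 rose by 1.096 (adjusted p = 0.0442). Notch1 rose by 0.84 (adjusted p = 0.0396) on its brightest probe, while its other probe gave 0.23 and was not called. Between DHI and I/R, 2 of the 12 were called lower and 0 higher, beside 10.5% and 11.5% of all probes. The 2 were Angpt2, already counted above, and Cxcr4, lower by 1.73 on the log2 scale (adjusted p = 0.196). Cxcr4 was not called by the methods' t-test or in a fit of the 2 groups alone. Esm1 differed by -3.08 there and was not called, as its DHI arrays spread widely.

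Signalling genes below the receptors went both ways. Of 12 with a signal well above background throughout the 9 arrays, 1 rose and 6 fell after I/R at the thresholds of the study, with a median of -0.47, where 20.8% of all probes were called higher and 22.3% lower. The second gene called higher, Sh2d2a, had been tested through the I/R arrays alone. Sh2d2a, an adaptor that binds Kdr and is also abundant in T cells, was not well above background in Sham. With Sham set at each array's dimmest detected signal, or the probe's own if higher, it was 2.66-fold higher in I/R. Normexp background correction gave a log2 difference of 0.15 that was not called. Mapkapk2, a kinase below p38, rose by 1.59 (adjusted p = 0.0396). Prkcb fell by 2.23, Shc2 by 1.62, Src by 1.35, and Prkca by 1.24 on the log2 scale, with adjusted p from 0.0396 to 0.0412. Prkcb encodes a protein kinase C and Shc2 an adaptor, and both are known to be abundant in neurons. The DHI arrays compared with I/R had Prkcb (1.56) and Prkca (1.01) called higher and Sh2d2a (-1.39) and Mapkapk2 (-0.90) lower. All had an adjusted p = 0.196, and 11.5% of all probes were called higher and 10.5% lower in this comparison. Mapkapk2 was not called with Sham array 1, 2, or 3 left out. Sh2d2a was well above background on 1 of 3 DHI arrays, and with normexp background correction its difference was 0.32 and not called. The second Prkca probe gave -0.51 and 0.22 in the 2 comparisons and was not called in either.

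Of the 9 oxygen sensing genes limma called 0 in I/R versus Sham, beside 43.1% of all probes, with a median of 0.01 over the 9. An unadjusted p under 0.05 was reached by 2, Egln2 (-0.58) and Vhl (0.57), both below the fold change of 1.5 and named after their values were seen. With DHI compared with I/R, 1 of the 9 was called, close to the 10.5% of all probes called lower. It was Hif1a, the oxygen-regulated transcription factor subunit that acts on Vegfa, lower by 0.76 (adjusted p = 0.196). Its log2 relative signal was -3.76, -3.18, and -3.04 in Sham, -3.15, -3.02, and -3.09 in I/R, and -3.39, -4.36, and -3.80 in DHI. The Hif1a values of the DHI arrays lay below all I/R values, as was so in 4.03% of all probes, while overlapping the Sham values. Of 12 genes that hypoxia is known to raise, 1 was called higher and 5 lower after I/R, beside 20.8% and 22.3% of all probes. Adm, the vasodilator peptide adrenomedullin, rose by 2.13 (adjusted p = 0.0453). Ankrd37 fell by 1.84, Bnip3 by 1.52, Vldlr by 1.23, and Pgk1 by 0.84 with adjusted p from 0.0396 to 0.0405, and Ldha fell by 0.69 with an adjusted p of 0.0626. Compared with the same I/R arrays, DHI had Adm called lower by 1.77 and the other 5 called higher by 0.59 to 1.28. All had an adjusted p = 0.196, and 10.5% of all probes were called lower and 11.5% higher. Ldha (0.53) and Pgk1 (0.59) were not called with quantile normalization, nor with the authors' log2 values.

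**Figure D4:**
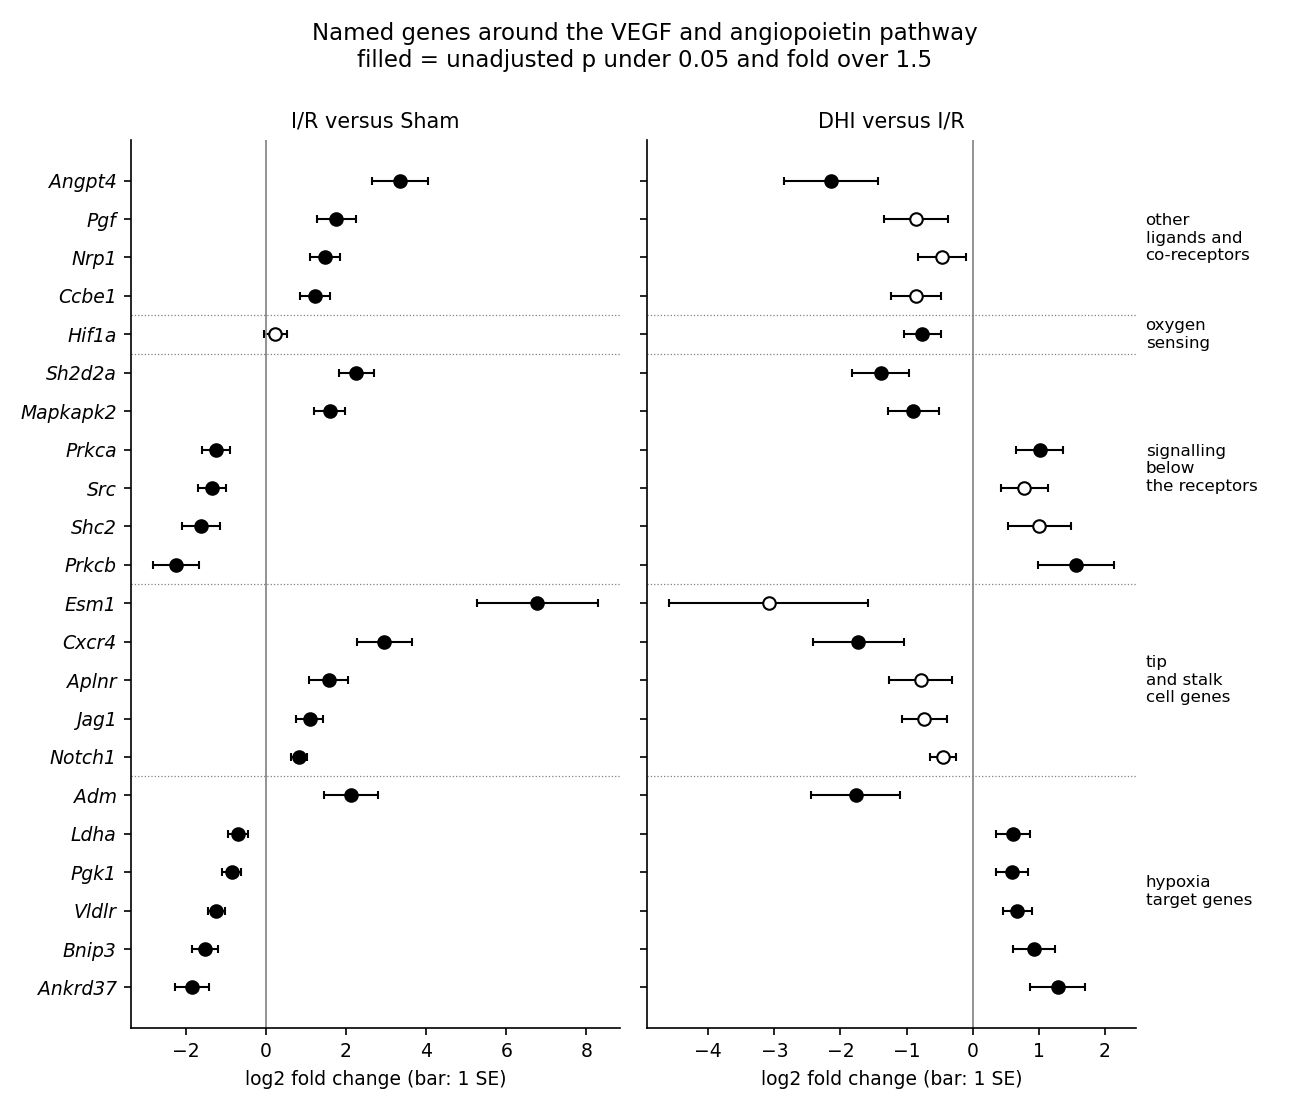
Fitted log2 fold changes, with 1 SE, of the named genes of 5 lists around the pathway in I/R versus Sham (left) and DHI versus I/R (right), filled where called. Angpt4, Pgf, Nrp1, Ccbe1, and the tip and stalk cell genes shown, which are those called, lie to the right of 0 after I/R. Esm1 is at 6.78 from a Sham group below background. In DHI versus I/R these genes lie to the left of 0.

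Marker genes were read as a description of the tissue. All 7 neuronal, 7 astrocyte, and 5 oligodendrocyte markers were well above background in at least 1 group, as the brain label calls for. Of 14 endothelial markers 3 were called higher (Eng, Pecam1, and Vwf) and 1 lower (Mfsd2a) in I/R versus Sham, with a median of 0.28, and these 4 were named after their values were seen. The share called higher was close to the 20.8% of all probes. Eng, a co-receptor of TGF-beta on activated endothelium, rose by 2.45 (adjusted p = 0.0396), and Pecam1, an adhesion molecule of endothelium, platelets, and leukocytes, by 1.096 (adjusted p = 0.0823). Mfsd2a, a lipid carrier of the blood-brain barrier, fell by 0.99 (adjusted p = 0.0396). Vwf rose by 1.04 on its brightest probe, while its other 2 probes gave 1.15 and -2.18.

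The summed signal of the endothelial markers, in units of the 75th percentile, was 7.90 to 9.30 in Sham, 10.4 to 16.8 in I/R, and 8.41 to 10.9 in DHI. Of 8 pericyte markers 3 were called higher in I/R versus Sham (Pdgfrb, Cspg4, and Anpep, list median 0.26), beside 20.8% of all probes. Of those not called, Rgs5 (0.41), Higd1b (0.12), and Kcnj8 (0.07) were above 0 and Abcc9 (-0.64) and Notch3 (-0.36) below. These genes were named after their values were seen. Of 4 smooth muscle markers 0 were called and 0 had an unadjusted p under 0.05 (median -0.22). Of the lymphatic markers 1 of 3 was called higher (Pdpn, list median 0.17), and Lyve1 (0.17) and Ccl21 (-1.61) were not called. Prox1, the defining factor of that cell type, was not above the level needed for a test.

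Markers of several other cell types also differed between I/R and Sham, in both directions, and their part in these results was not tested. Of all probes 20.8% were called higher and 22.3% lower in that comparison. The microglial and macrophage list had 8 of 9 genes called higher in I/R versus Sham, with a summed signal of 11.9 to 13.4 in Sham, 66.2 to 187.0 in I/R, and 15.7 to 96.3 in DHI. All 6 fibroblast markers were called higher, with 5.96 to 9.99 in Sham, 62.6 to 98.4 in I/R, and 6.12 to 88.5 in DHI. All 7 neuronal markers were called lower, with 39.8 to 54.5 in Sham, 3.58 to 21.1 in I/R, and 13.6 to 47.9 in DHI. Of 7 astrocyte markers 4 were called higher and 1 lower, and of 5 oligodendrocyte markers 0 were called and 0 had an unadjusted p under 0.05. All 4 red blood cell markers were called lower, though on Sham array 1 their mean lay 1.62 below the Sham mean.

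Of 7 choroid plexus markers 3 were called higher in I/R versus Sham, beside 20.8% of all probes. Their summed signals were 0.533 to 1.18 in Sham, 1.66 to 94.7 in I/R, and 7.58 to 138.7 in DHI for the 7 markers. Kl of that list was not above the level needed for a test. The mean of these markers lay above the Sham mean by 0.80, 2.68, and 3.85 on I/R arrays 1, 2, and 3 and by 5.22, 0.38, and 3.06 on DHI arrays 1, 2, and 3. On all 9 arrays 4 of the choroid plexus markers stood well above background, and 2 of the 4 were called higher in I/R versus Sham. DHI array 1 lay with the I/R arrays for the marker lists of fibroblasts (3.58 above the Sham mean), microglia and macrophages (3.03 above), and neurons (1.88 below). DHI arrays 2 and 3 lay between -0.48 and 0.60 of the Sham mean for these 3 lists.

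**Figure D5:**
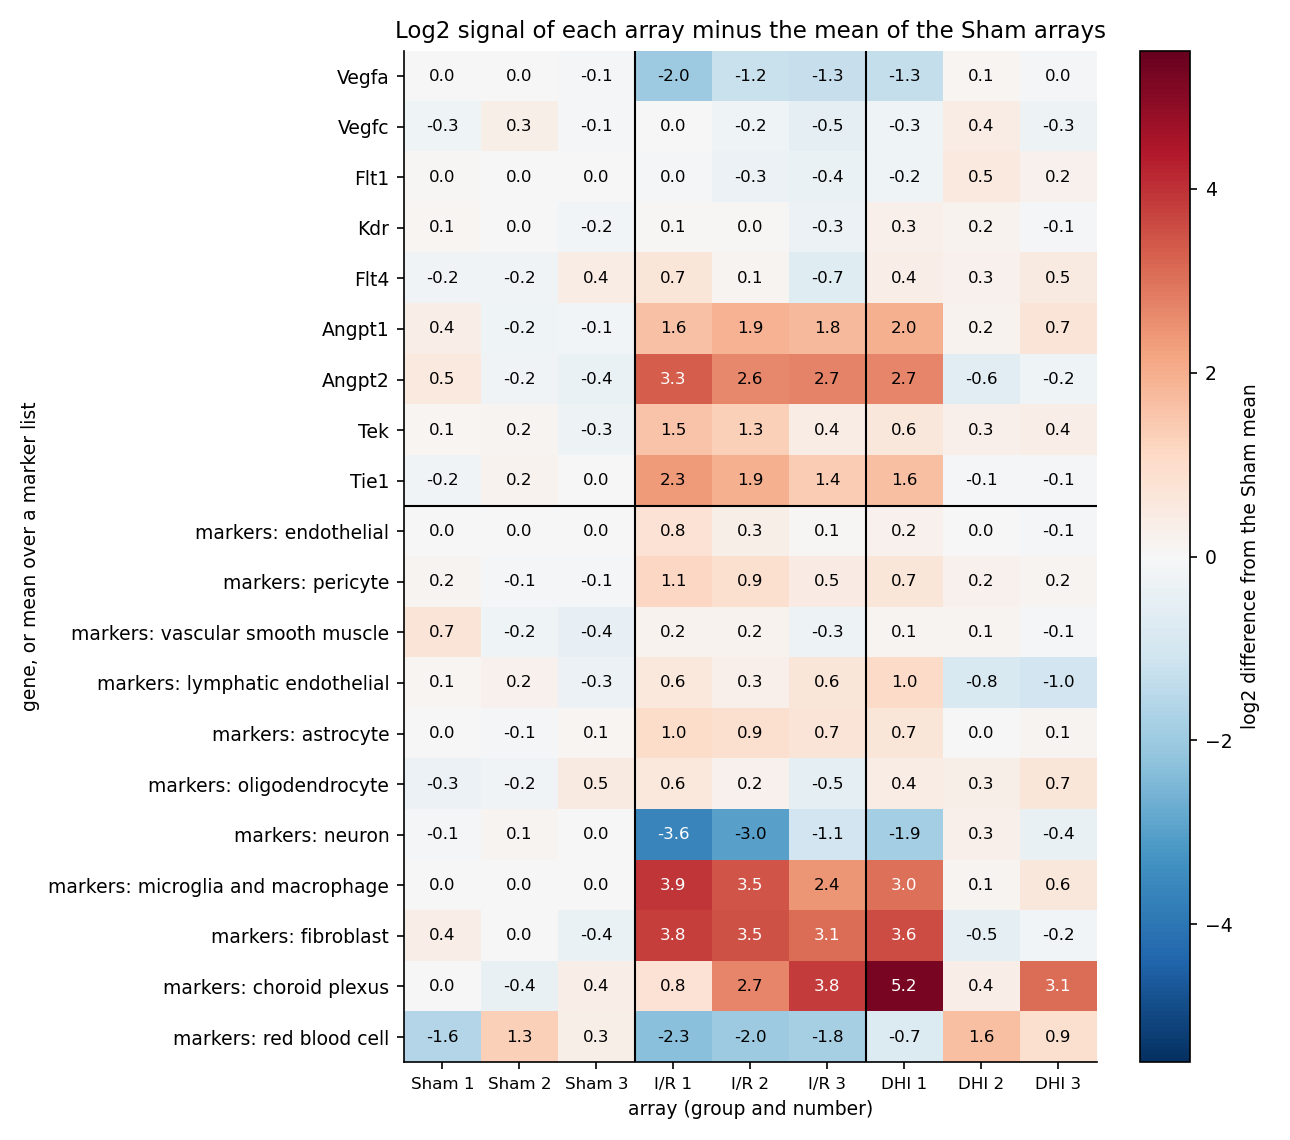
Log2 signal of each array minus the mean of the Sham arrays for the 9 measured genes and for the mean of each marker list, with the value written in each cell. The columns of I/R and of DHI array 1 show lower Vegfa and neuronal markers and higher Angpt1, Angpt2, Tie1, microglial, and fibroblast values, and DHI arrays 2 and 3 lie between -0.62 and 0.73 for these rows.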

How the data were processed

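The authors deposited 1 output of Agilent Feature Extraction (10.7.1.1 per the submitters' processing notes) for each array, in which the processed intensity of a spot is linear, background-corrected within its array, and free of any scaling across arrays. A series-wide listing of log2 values, which the authors deposited as well, served as an alternative. It followed the log2 intensities at r of 0.999 to 1.00 per array, and its normalization is not given in the sources used here. The number of value columns not used was 0.

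Control and outlier spots were dropped and the spots of a probe averaged. Testing needed a signal well above background on the full set of 3 arrays in some group, and 23 of the 23747 probes tested were fitted with an array missing. limma 3.58.1 (with R 4.3.3 and data.table, version 1.17.8) fitted all 9 arrays in a single model, with Benjamini-Hochberg adjustment. For a group below background, each array entered the fold change with its dimmest detected signal, or with the probe's signal if higher. That level is not a detection limit of the probe itself. The steps were tested on simulated data.

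The 10 genes, the further lists, and the tests were chosen with earlier results of these data known. All 10 genes were named, and from each pathway list up to 6 called genes per comparison, by size. Settings tried were other scalings (quantile, none), normexp correction (offset 50), the authors' log2 values, other filters on dim probes, a model of the pair of groups alone, array weights, a replicate block, the methods' t-test, an adjusted p under 0.1, the mean of a gene's probes, and each array left out. Those for pathway genes, and the counts of list genes well above background on all 9 arrays, were added after seeing the data. Same-numbered arrays did not deviate together throughout (r of -0.34 to 0.48), so the numbers were not taken as pairs. The sequence of Vegfa probe 1 is not reported here.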

Additional observations from a re-analysis of the deposited data

How the results depend on the processing

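Precision is limited by having 3 arrays a group, and dim probes (Tek, Ccbe1, Sh2d2a, probe 3 of Vegfa, and Angpt4 in Sham) lie near background. In I/R versus Sham the 5 genes called (Vegfa, Angpt1, Angpt2, Tek, and Tie1) were called in every setting tried, except that normexp background correction called 4, without Tek (0.45). With 1 array left out the count was 5 in each of 9 fits. The count at an adjusted p under 0.05 went from 5 to 0 with no scaling and to 0 to 5 with 1 array left out.

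In DHI versus I/R, 3 genes were called, against 5 with array weights, 4 with quantile normalization, the authors' log2 values, or the filter over all 9 arrays (each adding Tek), 4 with no scaling (Angpt1 and Tek added, Vegfa lost), 0 with the methods' t-test, 0 at an adjusted p under 0.1, and 0 to 5 with 1 array left out. At an adjusted p under 0.05 the count was 0, against 6 with array weights and 5 without DHI array 1. In DHI versus Sham, 1 gene was called, against 0 with quantile normalization, no scaling, the authors' log2 values, only the 2 groups compared, the methods' t-test, or an adjusted p under 0.1, and 0 to 1 with 1 array left out. The cause was not tested. With the replicate number as a block, the counts were 5, 4, and 1 in the 3 comparisons, Tek (-0.68) being added in DHI versus I/R. The array numbers name samples and do not pair them.

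Signs turned for small differences. In I/R versus Sham, Kdr was 0.0069 with quantile normalization, 0.14 with no scaling, 0.0083 with the authors' log2 values, and 0.074 with array weights. In DHI versus I/R, no scaling gave Flt1 -0.037, Flt4 -0.14, Kdr -0.27, and Vegfc -0.23, array weights gave Kdr -0.081, and normexp background correction gave Sh2d2a 0.32. In DHI versus Sham, array weights gave Angpt2 -0.086, Kdr -0.0073, and Tie1 -0.11, and no scaling gave Flt1 -0.086 and Kdr -0.14. With 1 array left out, Flt4 ranged from -0.25 to 0.41 and Kdr from -0.14 to 0.062 in I/R versus Sham. Flt4 ranged from -0.037 to 0.63 and Vegfc from -0.0046 to 0.35 in DHI versus I/R. In DHI versus Sham, Angpt2 ranged from -0.43 to 1.23, Tie1 from -0.10 to 0.78, Vegfa from -0.67 to 0.037, and Vegfc from -0.27 to 0.12.

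Of 396 fits of the named pathway genes in I/R versus Sham, 388 kept direction and call and 8 lost the call. In DHI versus I/R, 160 of 246 kept both, 85 lost the call, and 1 turned sign. The share of higher calls in DHI versus I/R was 52.2%, against 4.8% with no scaling, and in DHI versus Sham 70.4%, against 5.21% unscaled, 37.5% after quantile normalization, and 89.3% after the normexp correction. In I/R versus Sham it was 48.3%, against 60.9% with no scaling. The number of all probes called in DHI versus I/R was 5211, against 469 by the methods' t-test, 11904 with array weights, and 2149 in a fit of the 2 groups. In DHI versus Sham it was 849, against 448, 3484, and 906 in the same order, with 1688 for no scaling, 1407 for no filter, 1275 for normexp background correction, and 1280 with the block.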
